A study of Mus musculus with 14 samples.

Results

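The 9 genes described here encode core regulators of the Wnt and beta-catenin pathway: Apc, Apc2, Axin1, Axin2, Gsk3a, Gsk3b, Ctnnb1, Tcf7l2 and Lef1. They were selected by symbol, 9 of the 24444 genes in each of 2 expression tables of mouse cortex, and all 9 symbols were found in both. The choice was made with earlier results on the same mutant and wild-type libraries known, so the values of the 9 genes in these contrasts are given as a description and support no further statement. Polyadenylated RNA was sequenced from 14 mice in 2 models of the miR-29 family, microRNAs that share 1 seed and lower transcripts carrying the matching site in their 3′ UTR. The first model lacks the family in the brain: miR-29ab1 and miR-29b2c, its 2 gene clusters, carried floxed alleles and were deleted with Nestin-Cre, which acts in neural progenitors and so in the neurons and glia derived from them, while blood-derived and most vascular cells keep the clusters. The 3 mice of this genotype (miR29Nestin) were compared with 3 mice labelled miR29WT, all at postnatal day 40. In the second model miR-29 was left intact and its 5 sites in the 3′ UTR of Dnmt3a, a DNA methyltransferase, were mutated in the mouse's own gene by exchange of a region of 2909 bp. The 4 mice of this genotype (Dnmt3a-mi5) were compared with 4 mice labelled Dnmt3a-WT, all at 4.5 months. The comparisons ask what changes in cortex when miR-29 is lost, and what changes when Dnmt3a alone no longer responds to it.

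In the absence of a Wnt signal, the scaffold proteins APC and AXIN hold beta-catenin (the product of Ctnnb1) next to the kinases GSK3 and CK1, which mark it for degradation. When a Wnt ligand binds a Frizzled receptor and its LRP co-receptor, this destruction complex is held at the membrane, beta-catenin accumulates, and it activates target genes such as Axin2 through DNA-bound factors of the TCF and LEF family. In the adult forebrain Tcf7l2 and Lef1 are known as genes of thalamic neurons, while APC and GSK3 also act on microtubules in axons and dendrites of cortical neurons.

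Sites for miR-29 were searched as the letters TGGTGCT on the transcript's strand of the longest annotated 3′ UTR (GENCODE M21, GRCm38). These letters pair with the seed, bases 2 to 8, which is set in capitals in the mature sequences below (RefSeq, GRCm38.p6) and is the same in the 3 forms of the family.
miR-29a-3p: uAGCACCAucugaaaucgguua
miR-29b-3p: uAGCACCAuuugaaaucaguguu
miR-29c-3p: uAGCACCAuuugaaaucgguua
Of the 9 genes, Apc, Gsk3b and Ctnnb1 had 1 match each and the other 6 had none. The match in Apc began at position 3495 of a 3974-nucleotide UTR and was the only one of the 3 followed by an A, the base that extends the seed match. The matches of Gsk3b and Ctnnb1 are shown with their neighbouring bases, the match in capitals, because these genes carried a site and yet did not pass the test in either model. The third sequence is from Ctnnbip1, an inhibitor of beta-catenin that carried a site and rose in the first model.
Gsk3b, chr16:38242187-38242193, plus strand, position 1621 of a 5518-nucleotide UTR: aaaatgaacctTGGTGCTtatg
Ctnnb1, chr9:120960063-120960069, plus strand, position 549 of a 993-nucleotide UTR: aatatctgtagTGGTGCTgact
Ctnnbip1, chr4:149564594-149564600, plus strand, position 334 of a 2177-nucleotide UTR: tctccgagctcTGGTGCTttat
A match is a description of the letters. The letters GGTGCTA without a T before them, another form of site, were not counted as a match. Among all genes tested, 16.63% of those with an annotated UTR in the first table and 16.98% in the second held at least 1 such match.

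The libraries of the first model held 9.18 to 14.4 M reads in genes, and read depth was unknown for the second (10.2 to 10.4 M normalised counts). Libraries of a group correlated at 0.995 to 0.999 across genes. By Y-linked genes, 1 of 3 miR29Nestin and 2 of 3 miR29WT mice were male. Dnmt3a, the check of the labels, had a mean of 5529 normalised counts in miR29Nestin against 1662 in miR29WT and of 2080 in Dnmt3a-mi5 against 1145 in Dnmt3a-WT, without overlap in either model. Values below are normalised counts recovered from the deposited log2 values, and a log2 difference is always mutant minus wild type on the deposited scale. Tests are from limma with Benjamini-Hochberg adjustment over all genes whose mean lay at least 1 log2 unit above the lowest value of the table, and a gene was called at an adjusted p under 0.05. The p-values of the first model measure the spread between these mice. In the second they measure the spread left after an effect with 2 levels had been removed from the table before deposit. The main fit had no term for that effect, so its p-values there may be too small. In bulk cortex, fewer cells of a type and less RNA per cell cannot be told apart.

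Of the 9 genes, 8 were tested in the first model, where Apc was called higher and Apc2 lower. Over all 12014 genes tested there, 9.02% were called higher and 10.0% lower. In the second model 7 were tested, none was called higher and 1, again Apc, was called lower, against 0.225% higher and 0.572% lower of all 10670 genes tested. With a term for the removed effect fewer genes were called in this model, and Apc was not. Tcf7l2 lay below the filter in both tables and Lef1 in the second. The median log2 difference of the tested members was -0.05 in the first model and -0.02 in the second, beside -0.01 and 0.00 over all genes tested.

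Apc, the large scaffold of the destruction complex, lies on chromosome 18 from 34220924 to 34322552 on the plus strand (GRCm38). The 3 miR29Nestin libraries had 7782, 9302 and 9882 normalised counts and the 3 miR29WT libraries 5880, 5806 and 5699. All mutant libraries stood above all wild-type libraries, and the mutant libraries were spread more widely than the wild-type ones. The group means were 8988 ± 1084 and 5795 ± 91.0 (SD, n = 3 each), a 1.55-fold difference, with a log2 difference of 0.61 (SE 0.07, limma adjusted p = 3.05e-04). The value lay between 0.54 and 0.71 in 14 other settings and was called in all of them.

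The order of the groups was the opposite in the second model. The 4 Dnmt3a-mi5 libraries had 5380, 5133, 5782 and 4792 normalised counts of Apc and the 4 Dnmt3a-WT libraries 6636, 6209, 6195 and 6626. Every mutant library lay below every wild-type library. The means were 5272 ± 417 and 6417 ± 248 (SD, n = 4 each), a ratio of 0.822, and the log2 difference of -0.27 (SE 0.05) passed the threshold only just (limma adjusted p = 0.0495). An effect with 2 levels had been removed from this table before deposit. With a term for it the difference was the same and the call was lost (adjusted p = 0.126), and it was also lost in 6 of the 8 fits that left out 1 library, with adjusted p from 0.0975 to 0.134: without Dnmt3a-WT library 1, 3 or 4, and without Dnmt3a-mi5 library 1, 2 or 4.

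Apc2, a brain-enriched relative of Apc, moved in the other direction from Apc in the first model. It stood at 1997, 1788 and 1813 normalised counts in miR29Nestin and at 2101, 2142 and 2123 in miR29WT. The groups did not overlap, and miR29Nestin library 1 was nearest to the wild-type libraries, as it was for Apc. The means were 1866 ± 115 and 2122 ± 20.6 (SD, n = 3 each), with a log2 difference of -0.17 (SE 0.05, limma adjusted p = 0.0463). The call was lost with a term for sex (adjusted p = 0.0786) and in 5 of the 6 fits that left out 1 library, all but that without miR29Nestin library 1 (adjusted p from 0.0863 to 0.164). In Dnmt3a-mi5 its 4 libraries had 2791, 2643, 2674 and 2616 counts against 2363, 2599, 2472 and 2621 in Dnmt3a-WT. The groups overlapped by 1 library on each side and the gene was not called (log2 difference 0.08, SE 0.04, adjusted p = 0.263). Apc2 lies on chromosome 10 from 80295977 to 80318263, plus strand, and held no miR-29 match.

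Axin1 and Axin2 encode the scaffolds that bring APC, GSK3 and beta-catenin together, and Axin2 is in addition a target gene that reports pathway activity. Axin1 (chromosome 17, 26138688 to 26195811, plus strand) had 314, 318 and 338 normalised counts in miR29Nestin and 360, 376 and 397 in miR29WT. These groups did not overlap, but the log2 difference of -0.15 (SE 0.06) did not pass (limma adjusted p = 0.0925). In Dnmt3a-mi5 it had 346, 356, 354 and 363 counts against 308, 353, 329 and 315 in Dnmt3a-WT, with 1 Dnmt3a-WT library inside the mutant range (log2 difference 0.07, SE 0.03, adjusted p = 0.258).

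Axin2 (chromosome 11, 108920349 to 108950783, plus strand) did not differ beyond the spread of the mice in either model. It had 445, 486 and 470 normalised counts in miR29Nestin and 506, 392 and 439 in miR29WT, where the highest and the lowest library were both wild-type (log2 difference 0.05, SE 0.07, limma adjusted p = 0.655). In Dnmt3a-mi5 the counts were 335, 329, 325 and 320 and in Dnmt3a-WT 350, 314, 336 and 346 (log2 difference -0.02, SE 0.03, adjusted p = 0.723). The SE of the second comparison was less than that of the first, and the wild-type spread of 57.0 counts (SD, n = 3) in the first sets what could be seen there.

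The GSK3 kinases phosphorylate beta-catenin within the complex. Gsk3a (chromosome 7, 25228258 to 25237851, minus strand) had 3287, 3335 and 3349 normalised counts in miR29Nestin against 3492, 3512 and 3476 in miR29WT. The groups did not overlap, yet the means of 3324 ± 32.5 and 3493 ± 18.2 (SD, n = 3 each) gave a ratio of 0.951 and the gene was not called (log2 difference -0.07, SE 0.04, limma adjusted p = 0.304). For the other model Gsk3a had 2494, 2664, 2634 and 2452 counts in Dnmt3a-mi5 and 2643, 2480, 2526 and 2669 in Dnmt3a-WT, with ranges that nearly coincide (log2 difference -0.01, SE 0.04).

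Gsk3b (chromosome 16, 38089001 to 38246084, plus strand), which carries the site shown above, was not higher in the mice without miR-29. It had 2019, 2363 and 2335 normalised counts in miR29Nestin and 2422, 2419 and 2483 in miR29WT, so all 3 mutant libraries were lower, miR29Nestin library 1 the most. The log2 difference was -0.12 (SE 0.06, limma adjusted p = 0.204). In Dnmt3a-mi5 it had 2751, 2701, 2808 and 2615 counts against 2997, 2797, 2876 and 2949 in Dnmt3a-WT, where 1 mutant library reached into the wild-type range (log2 difference -0.08, SE 0.03, adjusted p = 0.202).

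Ctnnb1 (chromosome 9, 120929216 to 120960507, plus strand), the gene of beta-catenin itself, also carries a site and also did not pass. Its 3 miR29Nestin libraries had 4710, 5108 and 5429 normalised counts and its 3 miR29WT libraries 4441, 4922 and 4980, which overlap (log2 difference 0.08, SE 0.06, limma adjusted p = 0.378). In Dnmt3a-mi5 the counts were 4107, 3850, 4043 and 4244 and in Dnmt3a-WT 4082, 5405, 4550 and 4479. A single wild-type library lay inside the mutant range and the other 3 above it, the highest well apart, and the log2 difference of -0.17 (SE 0.07) did not pass (adjusted p = 0.214).

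**Figure D1:**
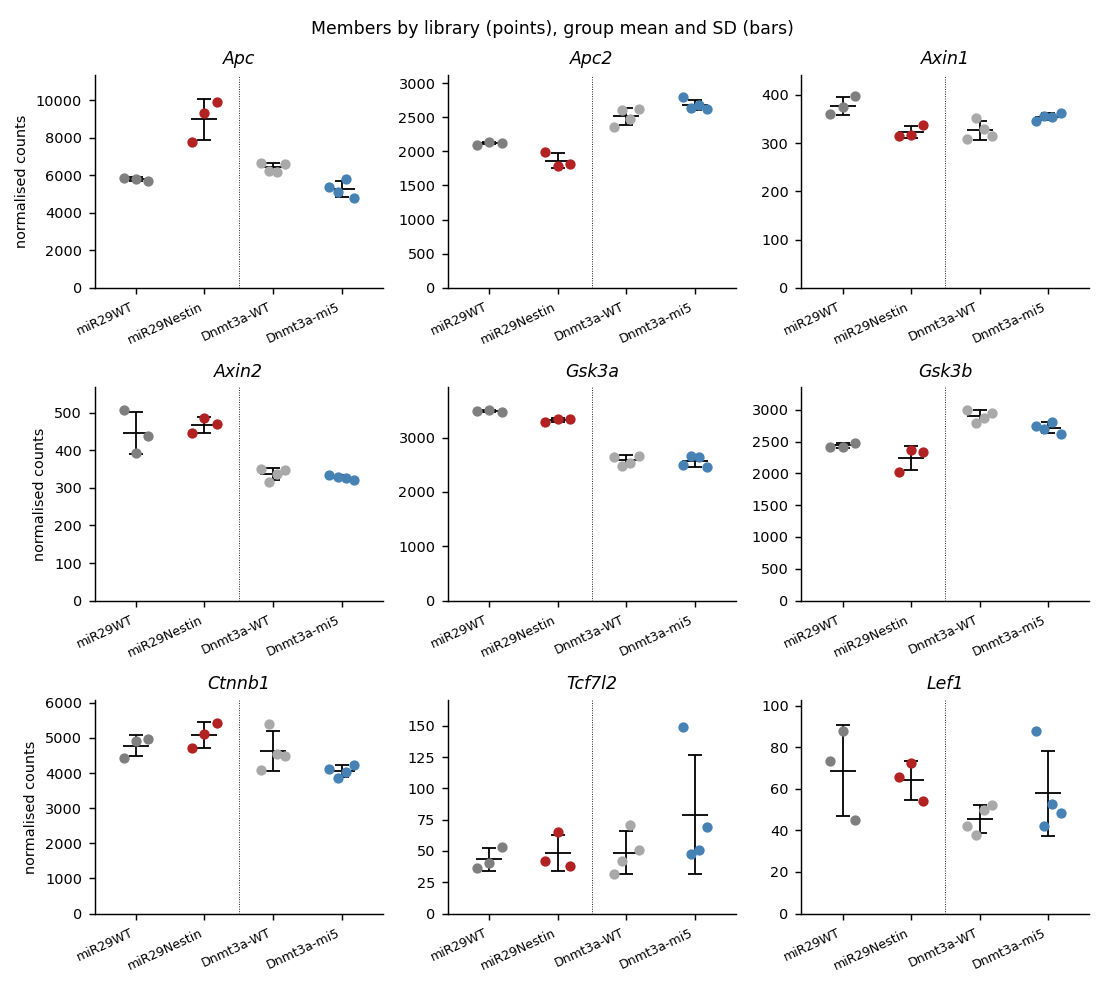
Normalised counts of the 9 genes in each of the 14 libraries (points), with the group mean and SD (bars). Each panel has its own vertical axis from 0, and the dotted line separates the 2 tables, which were normalised separately. Apc stands at 7782 to 9882 in miR29Nestin above 5699 to 5880 in miR29WT, and at 4792 to 5782 in Dnmt3a-mi5 below 6195 to 6636 in Dnmt3a-WT.

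Tcf7l2 and Lef1, which encode the DNA-bound partners of beta-catenin, were the least abundant of the 9 genes. Tcf7l2 (chromosome 19, 55741820 to 55933654, plus strand) had 42, 65 and 38 normalised counts in miR29Nestin and 36, 40 and 53 in miR29WT. Lef1 (chromosome 3, 131110471 to 131224356, plus strand) had 66, 73 and 54 counts in miR29Nestin and 73, 88 and 45 in miR29WT. The groups overlapped for both genes, with every mutant value of Lef1 inside the wild-type range and miR29Nestin library 2 above it for Tcf7l2, and the log2 difference of Lef1 was -0.03 (SE 0.09, limma adjusted p = 0.865). Tcf7l2 gave 0.05 (SE 0.08, adjusted p = 0.768) when fitted without the filter.

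Among the older mice, 1 library stood apart for both genes. Tcf7l2 had 149 normalised counts in Dnmt3a-mi5 library 1 and 47, 51 and 69 in the other 3, against 31, 42, 71 and 51 in Dnmt3a-WT. Lef1 had 88 counts in the same library and 42, 53 and 48 in the other 3, against 42, 38, 50 and 52 in Dnmt3a-WT. Without the filter the log2 differences were 0.17 for Tcf7l2 (SE 0.10, limma adjusted p = 0.470) and 0.08 for Lef1 (SE 0.05, adjusted p = 0.558). Without library 1 the differences of the group means fell to 0.05 and 0.02.

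Markers of thalamic neurons were high in the same library. The 10 marker genes summed to 2983 normalised counts in Dnmt3a-mi5 library 1, to 1709, 1717 and 1999 in the other 3 Dnmt3a-mi5 libraries and to between 1740 and 2272 in Dnmt3a-WT, and 6 of the 10 were highest in library 1 of all 8 libraries. Prkcd, a kinase gene of thalamic neurons, had 510 counts there and 62, 113 and 133 in the other 3, against 75 to 199 in Dnmt3a-WT. In the first model the sums were 2283 to 2521 in miR29Nestin and 1992 to 2119 in miR29WT, so these groups did not overlap, while Tcf7l2 and Lef1 did. Ptpn3 was the largest single part of these sums, with 1427, 1317 and 1357 counts in miR29Nestin against 1108, 1017 and 1088 in miR29WT. Slc17a6 had 286, 234 and 291 counts against 317, 290 and 314. Of the 6 markers tested there, 5 had a log2 difference above 0, 1 was called higher and none lower. Other marker lists also stood out in Dnmt3a-mi5 library 1. Its oligodendrocyte sum of 56997 counts was the highest of the 8 libraries, and 7 of those 10 markers were highest there. The sum of newly formed oligodendrocyte markers, 3811 counts, was also the highest. Its endothelial sum of 2371 was second to 2400 in Dnmt3a-mi5 library 2. The striatal sum of 16068 was second to 16740 in Dnmt3a-mi5 library 3, and the excitatory neuron sum of 60615 was the lowest. The part of thalamic or other tissue or cells in the values of the 2 genes was not tested.

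**Figure D2:**
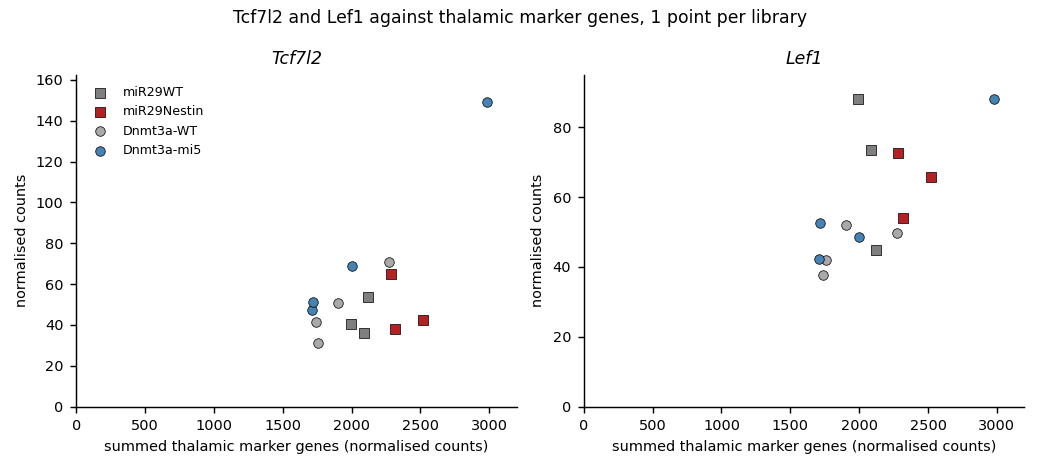
Normalised counts of Tcf7l2 (left) and Lef1 (right) against the summed normalised counts of 10 thalamic marker genes, 1 point per library, squares for the first table and circles for the second. Dnmt3a-mi5 library 1 lies alone at a sum of 2983, with 149 counts of Tcf7l2 and 88 of Lef1.

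Per kilobase of the longest annotated transcript, the 9 genes fell into a similar order in both wild-type groups. In miR29WT, Gsk3a stood at 1546 ± 8.04 normalised counts per kb and Ctnnb1 at 1320 ± 81.6, followed by Apc at 452 ± 7.10, Gsk3b at 294 ± 4.37 and Apc2 at 231 ± 2.25 (SD, n = 3 each). Axin2 at 105 ± 13.4 and Axin1, with values from 95.3 to 105, did not differ beyond their spread, nor did Lef1 at 19.7 ± 6.30 and Tcf7l2 at 11.7 ± 2.45, whose ranges touched only between 12.9 and 14.4. In Dnmt3a-WT, Ctnnb1 at 1278 ± 154 and Gsk3a at 1141 ± 40.3 overlapped, Apc followed at 501 ± 19.3, Gsk3b at 350 ± 10.5 and Apc2 at 274 ± 13.1 (SD, n = 4 each). Axin1 at 86.4 ± 5.21 and Axin2 at 79.0 ± 3.75 again lay side by side, and Tcf7l2 and Lef1 closed the order at 13.1 ± 4.54 and 13.0 ± 1.92. Gsk3a and Ctnnb1 were thus the most abundant per length in both wild-type groups, and Tcf7l2 and Lef1 the least.

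**Figure D3:**
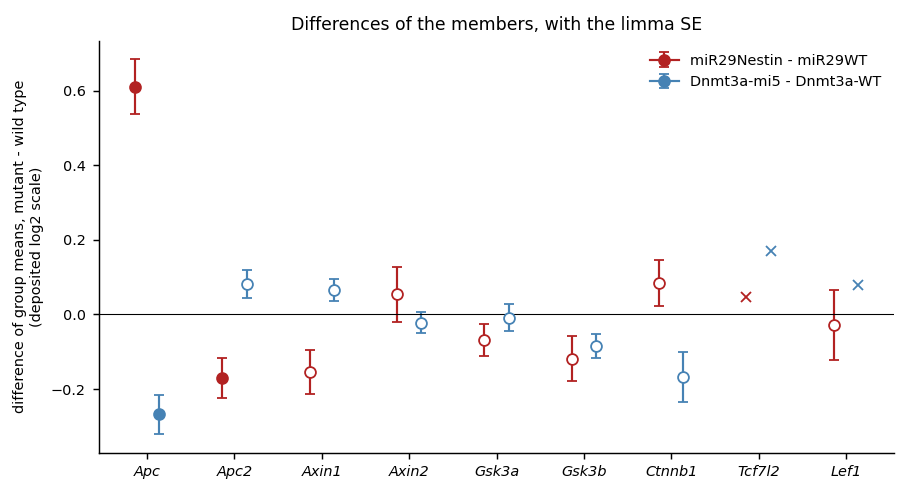
Log2 difference of the group means (mutant minus wild type, deposited scale) for each of the 9 genes, red for the first model and blue for the second, with the limma SE as bars. Filled points were called in the main fit, open points were tested and not called, and crosses (no SE) lay below the filter. With a term for the removed effect, Apc was not called in the second model. Apc has a difference of 0.61 in the first model and -0.27 in the second.

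Set side by side, Apc, Apc2, Axin1, Axin2 and Ctnnb1 had differences of opposite sign in the 2 models, of which only those of Apc were called in both. The call of Apc in the second model was lost with a term for the removed effect. Gsk3a and Gsk3b were below 0 in both models. The difference between the models was 0.88 for Apc (SE 0.09), -0.25 for Apc2 (SE 0.06) and -0.22 for Axin1 (SE 0.07). These values have no test, because the tables were normalised separately and the models differed in age, kit and removed effects as well as in genotype.

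Sums of some cell type markers separated the groups, and those of others overlapped. In the first model oligodendrocyte, endothelial, microglia, interneuron and striatal sums overlapped. The overlap of the interneuron sums held opposite changes. Of those 8 markers 2 were called higher and 2 lower, beside 9.02% and 10.0% over all genes. Pvalb had 1470, 1331 and 1433 counts in miR29Nestin against 816, 671 and 756 in miR29WT. Gad2 had 1189, 1535 and 1600 counts against 1992, 2167 and 2239. Hippocampal and dentate sums there were 3097 to 3509 in miR29Nestin and 4026 to 4198 in miR29WT, with 1 of 6 tested called higher and 3 lower. In the first model the 10 excitatory neuron markers summed to between 64632 and 68629 normalised counts in miR29Nestin and between 73730 and 84586 in miR29WT, with 5 of 10 called lower and none higher. The 10 astrocyte markers summed to 60208 to 65146 against 54786 to 56418, with 6 called higher and 1 lower. The 10 leptomeningeal fibroblast markers summed to 2284 to 2719 against 1109 to 1662, with 6 of the 8 tested called higher and none lower. Igf2 was the largest single part of these sums (1274, 1215 and 996 counts against 389, 678 and 688). Dcn overlapped between the groups (88.6, 86.9 and 63.5 counts against 53.7, 131 and 93.0). For Dnmt3a-mi5, the excitatory markers summed to 60615 to 66495 and in Dnmt3a-WT to 66544 to 70769, with none of 10 called. The astrocyte markers summed to 56905 to 59028 against 64229 to 68485, a gap made mostly by Slc1a2 (means of 41632 and 49580 counts), the only one of the 10 called lower, and their median log2 difference was 0.00 with 5 of 10 above 0. Endothelial sums did not overlap (2093 to 2400 against 1756 to 2059), with 1 of 9 tested called higher (Flt1), and microglia sums were 3676 to 4097 against 4093 to 4302, with 2 of 7 tested called lower (P2ry12 and Cx3cr1). Oligodendrocyte precursor sums did not overlap either (4842 to 5067 against 5095 to 5307). Of the 6 precursor markers tested, none had a log2 difference above 0 and none was called. Excitatory sums were thus lower in the mutants of both models, in the second by a narrow gap (66495 below 66544). Some sums varied widely within a group. Striatal sums ran from 6915 to 16216 in miR29Nestin, and choroid plexus sums from 129 to 11849 in Dnmt3a-WT. The part of cell type markers in the differences of the 9 genes was not tested.

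To see which genes vary with the members from mouse to mouse, group means were subtracted and each member was compared with 10610 genes over the 14 libraries. These correlations are a description. Apc was nearest to Camk4, a neuronal calmodulin-dependent kinase (r = 0.96), and then to St8sia3, Slc2a13 and Ints6l (0.94 each). Gsk3b was nearest to Erbb4 (0.98) and Ctnnb1 to Grin3a (0.97), an NMDA receptor subunit. The nearest gene was Lpin2 for Axin1 (0.94), Zfp646 for Axin2 (0.96), Btbd10 for Gsk3a (0.90) and Hadh for Apc2 (0.89). The libraries share their kit and table within each model, so such values also hold any shared depth or handling. They hold differences in tissue content within a group as well. Striatal marker sums, for one, ran from 6915 to 16216 in miR29Nestin, and their part in these correlations was not tested.

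Around the 9 genes, 127 other genes of the pathway were examined by role. In the first model 91 of them were tested, 7 were called higher and 16 lower, or 23 in all, beside 9.02% higher and 10.0% lower over all genes. Their median log2 difference was -0.05. Of the same list 85 were tested in the second model and none was called by limma, with a median log2 difference of 0.00. An unadjusted p under 0.05 was reached by 18 of these 85 genes, a share near that over all genes (2025 of 10670). With the stricter filter, or without Dnmt3a-WT library 2, 1 gene of the list was called lower.

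Among ligands and secretion genes, 2 of the 13 tested were called higher and 3 lower in the first model. Wnt7b, a ligand of neurons and blood vessel formation, had a log2 difference of -0.33 (SE 0.07, limma adjusted p = 0.00827) and Wnt9a of -0.35 (SE 0.09, adjusted p = 0.0201). Ndp, which encodes the Frizzled ligand norrin and is expressed by astrocytes, was higher by 0.24 (SE 0.06, adjusted p = 0.0191), as was Wnt5a, a ligand of the branch without beta-catenin, by 0.26 (SE 0.07, adjusted p = 0.0316). The calls of Ndp, Wnt5a and Wnt9a were lost in some of the other settings.

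Of 13 receptors tested, Fzd3 was called lower and Fzd1 higher. Fzd3, a Frizzled receptor needed for axon tracts, had 782, 950 and 1073 normalised counts in miR29Nestin and 1380, 1603 and 1503 in miR29WT. The groups were far apart, and the log2 difference of -0.59 (SE 0.09, limma adjusted p = 0.00120) was the largest fall of the pathway genes named here. Fzd1 had 173, 188 and 217 counts against 123, 135 and 128, also without overlap (log2 difference 0.31, SE 0.07, adjusted p = 0.00908). In Dnmt3a-mi5 Fzd3 lay below Dnmt3a-WT in every library without passing the test (log2 difference -0.21, adjusted p = 0.0633).

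Secreted and membrane inhibitors gave 1 gene higher and 2 lower among 8 tested. Trabd2b, which encodes the Wnt-cleaving protease TIKI2 and holds 3 miR-29 matches, had 166, 208 and 202 normalised counts in miR29Nestin against 75, 84 and 122 in miR29WT (log2 difference 0.53, SE 0.09, limma adjusted p = 0.00240). Dkk3, a secreted member of the Dickkopf family, had 3774, 3830 and 3505 counts against 4739, 4843 and 4963 (log2 difference -0.37, SE 0.05, adjusted p = 5.15e-04). Sfrp1, a soluble Wnt-binding protein, fell by 0.26 (SE 0.07, adjusted p = 0.0280), a call lost in several settings. The genes of this role thus did not share a direction.

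Of the 31 cytoplasmic transducers and partners of the destruction complex tested, 2 were called higher and 4 lower. Amer1, which anchors APC at the membrane and holds 2 matches, had 257, 280 and 239 normalised counts in miR29Nestin against 190, 160 and 189 in miR29WT (log2 difference 0.32, SE 0.07, limma adjusted p = 0.00877). Its relative Amer3, without a match, was lower by 0.27 (log2 difference -0.27, SE 0.06, adjusted p = 0.0105). Dact3 and Dact1, which bind Dishevelled, were lower, with log2 differences of -0.37 (SE 0.07, adjusted p = 0.00607) and -0.33 (SE 0.07, adjusted p = 0.0102).

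Among the 20 nuclear partners tested, 1 was called higher and 4 lower. Ctnnbip1, which binds beta-catenin and keeps it from TCF factors, had 944, 890 and 911 normalised counts in miR29Nestin against 635, 603 and 604 in miR29WT, a difference far beyond the spread (log2 difference 0.47, SE 0.05, limma adjusted p = 2.20e-04). Bcl9, a coactivator of beta-catenin, had 621, 631 and 504 counts against 796, 817 and 823 (log2 difference -0.38, SE 0.07, adjusted p = 0.00401). The co-repressor gene Tle2 fell by 0.35 (SE 0.07, adjusted p = 0.00686) and the chromatin remodeller Smarca4 by 0.17 (SE 0.05, adjusted p = 0.0352), the latter call being lost in 7 of 14 other settings. Of the 6 textbook target genes tested besides Axin2, Nrcam (log2 difference -0.25, SE 0.05, adjusted p = 0.00555) and Prox1 (-0.21, SE 0.06, adjusted p = 0.0444) were called lower and none higher. The call of Prox1 held in 5 of 13 other settings.

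**Figure D4:**
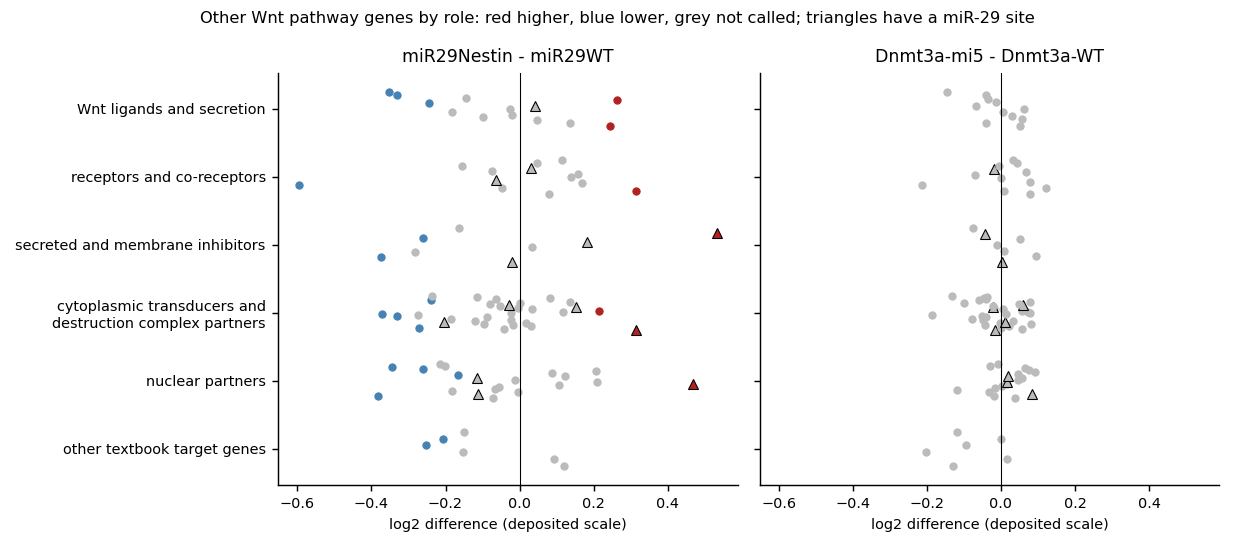
Log2 difference (mutant minus wild type, deposited scale) of the tested pathway genes other than the 9 members, by role, for the first model (left) and the second (right). Red points were called higher, blue lower and grey not called, and triangles mark genes with a miR-29 match in the longest 3′ UTR. Of the 7 red and 16 blue points on the left, 3 red ones and no blue one are triangles, and the right panel has no called gene.

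Split by the seed match, members and pathway genes together gave 16 tested genes with a match in the first model. Of these, 4 were called higher (Apc, Trabd2b, Amer1 and Ctnnbip1) and none lower, whereas the 83 tested genes without a match gave 4 higher and 17 lower. Dkk3, called lower, held 1 site of the form GGTGCTA, which was not counted, and so stands among the genes without a match. Over all genes tested with an annotated UTR, 17.2% of those with a match were called higher and 8.62% lower, and of those without a match 7.40% and 10.4%. Among the older mice 13 such genes with a match were tested, of which Apc was called lower and none higher, beside 1.02% lower and 0.341% higher of all genes with a match. The remaining 12 genes with a match in the first model, among them Gsk3b and Ctnnb1, were not called.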

How the data were processed

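Each model came as 1 table that the authors deposited on a log2 scale, after DESeq2's variance-stabilising transformation. Per the submitters' processing notes, DESeq2, Salmon, STAR and cutadapt were used, with no roles given, and mm9 and hg19 are the builds named. Every column of values was used. Columns of the Dnmt3a-mi5 table map to groups only, and its libraries are numbered by column order. There, 2 sets of 4 libraries had the same mean in each gene (to 5.5e-09 log2 units), so an effect with 2 levels had been removed before deposit, and 2546 genes had values below the zero level. Normalised counts were recovered by inverting the transformation from the zero level (6.5861 and 7.6295), and they are approximate for that table. For the first model, relative depth was read from low values that are whole reads.

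Each table was fitted alone with limma 3.58.1 in R 4.3.3 (moderated statistics with a mean-variance trend, 2-sided), tested on simulated data first. The labels of the first model do not say whether equal replicate numbers pair the samples. Deviations from the group means correlated at 0.335, 0.204 and 0.186 for equal numbers. For unequal numbers they reached 0.178 (miR29Nestin 3 with miR29WT 2), so a pairing is not established. A fit with the replicate number as a block was an alternative, and the main fit had no block. Other alternatives were the filter, the variance prior, the scale, the centring, sex, the removed effect and each library left out. UTRs and positions came from GENCODE M21 (GRCm38) by symbol, not from the build of the files. Python 3.11.15, numpy 2.4.6 and pandas 2.3.3 were used for summaries. The 9 members, the pathway and marker lists and the settings were chosen with earlier results of these data known. Named were the 9 members, Dnmt3a, up to 4 called pathway genes per role with the smallest adjusted p, and the 4 genes nearest to each member. Further marker genes were named where a result turned on them.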

Additional observations from a re-analysis of the deposited data

Results flagged for a closer look

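Within groups of 4 mice, 5 of 92 sets of values examined had 1 library whose gap to its nearest neighbour was too large a share of the whole range of the group by Dixon's criterion, about what chance gives (1 in 20 groups). In Dnmt3a-mi5 these were Dact3, low in library 3 (gap 0.838 of the range, 2217 normalised counts against 2352 to 2379), Ppp2r5e, low in library 1 (0.921, 954 counts against 1012 to 1017), and Ctnnbip1, high in library 4 (0.93, 418 counts against 366 to 370). In Dnmt3a-WT they were Smarca4, high in library 4 (0.87, 2442 counts against 2382 to 2390), and the summed microglia markers, low in library 4 (0.85).

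The members and the pathway genes called in the first model were compared between the models, as far as tested in both tables. These pathway genes were chosen by their calls, and no share over all genes was taken, so a count of them is only a description. Of the genes compared, 7 had every mutant library on one side of the wild-type mean in one model and on the opposite side in the other, on the deposited log2 scale. For Axin2 this held only just: miR29Nestin library 1 had 445 normalised counts and the miR29WT mean was 446. The difference between the models was 0.878 for Apc, -0.253 for Apc2, -0.221 for Axin1 and 0.0757 for Axin2 on the log2 scale. It was -0.411 for the co-repressor gene Tle2, -0.335 for its relative Tle1 and -0.259 for Smarca4, which were below the wild-type mean in every miR29Nestin library and above it in every Dnmt3a-mi5 library. None of these differences between models was tested, since age, kit and normalisation differ along with the genotype. Tle1 and Ppp2r5e lie outside the rule for named genes and were chosen after their values were seen.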

How the results depend on the processing

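In the first model, 2289 genes were called, and between 1384 and 2313 when 1 library was left out. Of the members, 2 were called, but 1 (Apc) with no filter, with no mean-variance trend and with a sex term, and 1 to 2 when 1 library was left out. Of the pathway genes, 23 were called, and 13 to 20 when 1 library was left out. With the replicate block, 3037 genes, 2 members and 30 pathway genes were called, and no call of a named gene changed. In the second model, 85 genes were called, but 25 with no filter and 13 with a term for the removed effect, and 9 to 176 when 1 library was left out. The 1 member called, Apc, was lost (0 called) with no filter, with that term and on the scale log2(normalised count + 1), and 0 to 1 were called when 1 library was left out. Of the pathway genes 0 were called, but 1 with a mean at least 2 above the lowest value, and 0 to 1 when 1 library was left out. No block by mouse was fitted there, because its column names repeat the same replicate numbers within a group. The earlier and the later columns of each repeated name were the 2 sets whose effect had been removed, and the term above stands for these sets. Signs changed only for values near 0 that were never called. With 1 library left out, the log2 difference of Axin2 in the first model ran from -0.010 (without miR29WT library 2) to 0.12 and that of Lef1 from -0.13 to 0.051 (above 0 without miR29Nestin library 3 or miR29WT library 2). That of Gsk3a in the second ran from -0.026 to 0.0088 (above 0 without Dnmt3a-WT library 1 or 4 or Dnmt3a-mi5 library 1 or 4). The cause of these changes was not tested. Depth limits Tcf7l2 and Lef1 most, at 31 to 149 normalised counts.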
